A study of Sus scrofa with 5 samples.

Results

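Plasma cells of the piglet cecum were chosen by the counts themselves. A barcode was taken as a plasma cell when it held 200 or more detected genes, when JCHAIN made up 150 or more of every 10000 of its unique molecular identifiers (UMIs), and when MZB1, TXNDC5 and DERL3 together reached 5 UMIs. Of 72701 cells with 200 or more genes, 449 met this rule. The study followed the cecum of male Large White piglets that fed on maternal milk, at birth (d0) and 1, 7, 14 and 21 days later (d1, d7, d14 and d21). Each age had 1 library, made with a droplet kit that reads the 3′ ends of transcripts from the scraped mucosa of 5 piglets pooled, with no treatment. No age had a replicate, so no test between ages was possible, and effects of age and of library cannot be told apart. Intervals are 95% intervals for counting error only.

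Plasma cells are the last stage of B cell development and secrete antibody. Under the factors PRDM1, IRF4 and XBP1 their precursors lose B cell surface genes and genes of antigen presentation, and enlarge the endoplasmic reticulum (ER), in which antibody chains are folded and joined. In the gut most plasma cells make IgA, whose units are held together by the joining chain, JCHAIN, and which epithelial cells carry into the lumen with the receptor PIGR. MZB1 is an ER chaperone of B lineage cells, TXNDC5 is a disulfide isomerase of the ER, and DERL3 takes part in the removal of misfolded proteins from it.

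No barcode met the rule in the first days of life. At d0 there were 0 of 15218 cells, which by a limit of 3 cells allows a share of up to 0.0197%, and at d1 there were 0 of 14142 cells, which allows up to 0.0212%. The upper ends of the Clopper-Pearson intervals, as plotted, were 0.0242% and 0.0261%. At d7 there were 2 of 10272 cells, or 0.0195% (Clopper-Pearson interval 0.00236 to 0.0703%). At d14 there were 256 of 16177 cells, or 1.58% (1.40 to 1.79%), and at d21 there were 191 of 16892 cells, or 1.13% (0.977 to 1.30%). The share was thus lower at d21 than at d14 beyond counting error, with a log2 ratio of -0.48 (-0.75 to -0.22). The log2 ratio of d14 over d7 was 6.34 (4.34 to 8.35) and rests on the 2 cells of d7.

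B cells had their highest share at an earlier age. They were taken as cells outside the rule with at least 2 UMIs of MS4A1, the surface protein CD20, and at least 1 UMI of a second B cell gene. Their share was 0.0394% at d0 (6 cells), 0.141% at d1 (20 cells), 5.89% at d7 (605 cells), 1.48% at d14 (239 cells) and 0.403% at d21 (68 cells). In the d7 library B cells were at their highest share while only 2 cells met the rule for plasma cells. The paper reports a rise of B cells up to d21, for B cells defined as a subcluster of its immune cells. The 2 groups of B cells were defined differently and may hold different cells.

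**Figure D1:**
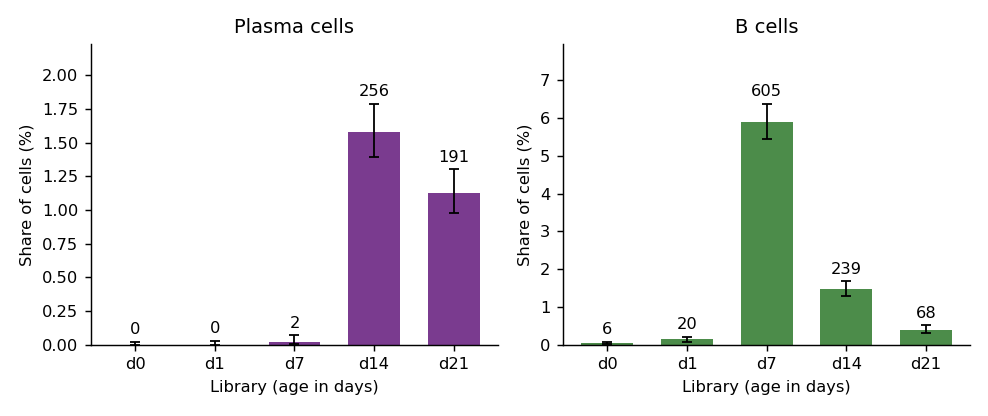
Share of cells, in percent, that met the rule for plasma cells (left) or for B cells (right) in each library, with exact Clopper-Pearson 95% intervals and the number of cells above each bar. Plasma cells numbered 0, 0, 2, 256 and 191 from d0 to d21, and B cells reached their highest share, 5.89%, at d7.

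The libraries held 83394038, 80196009, 47921183, 91863866 and 69522315 UMIs from d0 to d21. Median UMIs per cell were 2859, 3005, 2340, 4121 and 2587, so the d7 library was the shallowest and the d14 library the deepest. Any pair of libraries shared between 41 and 81 barcodes, and no barcode met the rule in more than 1 library.

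JCHAIN in whole libraries had the same order as the cell counts. Its level was 0.00851 UMIs per 10000 at d0, 0.0176 at d1, 0.60 at d7, 22.8 at d14 and 13.7 at d21. The cells chosen held 63.8% of all JCHAIN UMIs at d7, 92.0% at d14 and 89.7% at d21, which the rule itself favours. JCHAIN UMIs were found in T cells too, and whether they came from free RNA or doublets was not tested. Of T cells, taken as cells with at least 2 CD3E UMIs and no UMI of MZB1, TXNDC5 or DERL3, 24.5% at d14 and 33.0% at d21 held a JCHAIN UMI, at median depths of 4188.5 and 4262.5 UMIs. Their JCHAIN level was 0.553 and 0.803 UMIs per 10000, against 782 and 707 in the plasma cells, whose median depths were 7088 and 4203 UMIs.

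Both cells of d7 stood far inside the rule. The first held 973 JCHAIN UMIs among 4454 UMIs, with 60 of MZB1, 50 of TXNDC5 and 12 of TNFRSF17, the receptor BCMA through which plasma cells receive survival signals. The second held 860 JCHAIN UMIs among 11096, with 53 of MZB1, 36 of TXNDC5 and 3 of TNFRSF17. Neither held a UMI of MS4A1 or of the proliferation genes MKI67 and TOP2A. A further 2 cells of d7 had JCHAIN between 100 and 150 per 10000, both with 5 or more UMIs of the other rule genes.

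The JCHAIN threshold did not fall in a gap. Among cells with enough of the other rule genes, 30 at d14 lay between 100 and 150 per 10000 and 19 between 150 and 200. At d21 these bands held 13 and 7 cells. Of cells with enough JCHAIN, 6 at d14 and 16 at d21 were left out for having too few UMIs of the other rule genes, at median depths of 1089 and 818 UMIs. The median plasma cell had a JCHAIN level of 718 per 10000 at d14 (153 to 5040) and 705 at d21 (154 to 3208), and 79.5 and 50 UMIs of MZB1, TXNDC5 and DERL3 together. It held 1299 genes at d14 and 1214 at d21.

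Genes that the rule did not name marked the same cells, as a description of cells chosen on their counts. TNFRSF17 was detected in 70.7% of plasma cells at d14 and 83.2% at d21, against 1.67% and 8.82% of B cells and 0.163% and 0.232% of T cells. BHLHA15, a factor of secretory cells, was detected in 67.6% and 59.7% of plasma cells. Its shares were 2.93% and 0% in B cells and 0.0817% and 0.0465% in T cells. CCR10, a receptor through which IgA plasma cells home to mucosa, was detected in 39.1% and 39.3%. Its shares were 0.837% and 4.41% in B cells and 0.0817% and 0.441% in T cells. The shares in plasma cells lay far above those in B cells and T cells of the same libraries. The T cells had been taken without UMIs of MZB1, TXNDC5 and DERL3, so the contrast with them was partly set beforehand. The surface proteins SDC1 (CD138), CD38 and CD27, which mark plasma cells in other species, were detected in fewer cells: SDC1 in 24.2 and 30.4 percent, CD38 in 32.4 and 24.1 percent and CD27 in 1.17 and 1.57 percent at d14 and d21.

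A single gene took much of the pooled RNA of plasma cells, through part of the cells. LOC100152327 is a protein-coding gene in the RefSeq annotation of Sscrofa11.1, at chr14:48800248-49001525. Its span of 201278 bases holds 4 genes of the class V segment or C region. The span lies inside LOC102158332, a gene of the class C region at chr14:48760057-49007759. These classes are used for segments of antigen receptor genes, and chromosome 14 carries the lambda light chain locus of the pig. None of the 137 V segment and C region genes of the annotation was a gene of the count matrices, so reads of several segments may have been counted under this name, and kappa and lambda chains could not be compared. LOC100152327 took 46.6% of pooled plasma cell UMIs at d14 and 32.5% at d21, while the median plasma cell gave it 30.3% and 0.246%. Its pooled level in all other cells was 99.1 and 15.3 UMIs per 10000, which includes 149 cells at d14 and 22 at d21 that were outside the rule but held 20 or more UMIs of MZB1, TXNDC5 and DERL3, with levels of 2424 and 1918. In T cells its level was 4.28 and 3.17.

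Its share was split between cells. At d14, 137 of 256 plasma cells (53.5%, 47.2 to 59.7%) gave it 10% or more of their UMIs, 114 (44.5%) gave it under 1%, and 5 lay between. At d21, 85 of 191 (44.5%, 37.3 to 51.9%) gave it 10% or more, 101 (52.9%) gave it under 1%, and 5 lay between. The high cells had medians of 64.0% and 48.4% of their UMIs. The low cells had medians of 0.0936% and 0.0545%, against medians of 0.0438% and 0.0395% in all other cells.

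**Figure D2:**
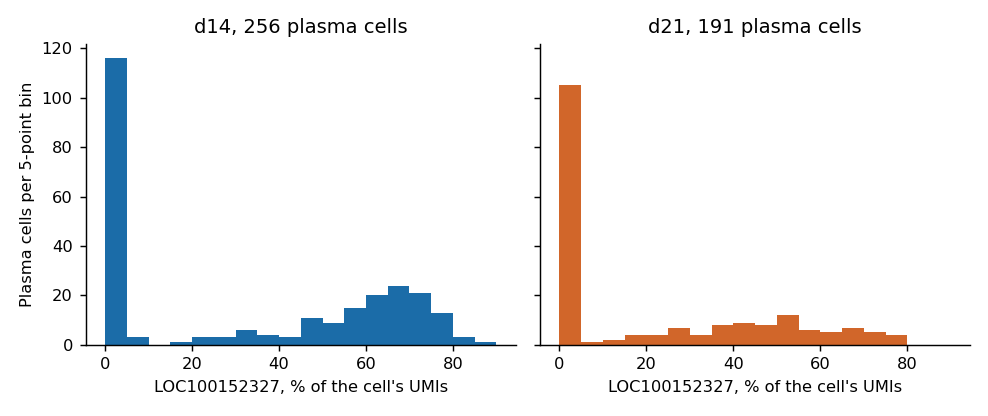
Number of plasma cells (vertical axis) by the percentage of a cell's UMIs on LOC100152327 (horizontal axis, bins of 5 percentage points) at d14 and d21. The cells form a low and a high group, with 5 cells between 1% and 10% in each library.

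High and low cells differed in total UMIs, and less in UMIs off these genes. At d14 the median was 14133 UMIs in high and 3974 in low cells, and at d21 it was 6163 and 3217. Without LOC100152327, JCHAIN and LOC396781, a gene described next, the medians were 3315 and 2914.5 at d14, and 2834 and 2735 at d21. JCHAIN per 10000 of all UMIs, the scale of the rule, had medians of 594 in high and 1628 in low cells at d14, and 573 and 1201 at d21. Per 10000 UMIs off both loci the medians were 1654.5 and 1633 at d14, and 1176 and 1201 at d21. A pair of unnamed genes, chosen after their values were seen, differed by more, on few cells. Per 10000 UMIs without the 2 loci and JCHAIN, LOC100623670, which lies inside the span of LOC100152327, was at 1.62 in high and 0.0929 in low cells at d14, and at 2.26 and 0.134 at d21, with 2 high cells in each library holding 2 or more of its UMIs. LOC445536, which has no chromosome, was at 5.74 and 0.836 at d14, and at 1.16 and 0.348 at d21, with 2 or more UMIs in 21 high and 4 low cells at d14, and in 5 and 1 at d21. Other unnamed genes differed less. LOC100125542 was at 11.2 in high and 9.99 in low cells at d14, and at 19.9 and 32.0 at d21. LOC100038329 was at 4.44 and 5.58, and at 10.2 and 6.43. LOC100038328 was at 4.30 and 2.86, and at 1.49 and 0.616.

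LOC396781, for which RefSeq also gives the name IGHG, that of the IgG heavy chain, and no chromosome, differed between the libraries. RefSeq gives it a length of 165144 bases, and reads of several segments may have been counted under this name too. With no C region gene in the matrices, the classes of heavy chain, such as IgA and IgG, were not compared. The level of LOC396781 was 193 UMIs per 10000 in plasma cells at d14 and 20.8 at d21. At d14, 32 of 256 cells (12.5%, 8.71 to 17.2%) gave it 1% or more of their UMIs, 15 of them 20% or more. At d21, 2 of 191 did (1.05%, 0.127 to 3.73%). With JCHAIN taken per 10000 UMIs off both loci, an alternative chosen after the data were seen, these shares were 19.9% and 4.52%. Of the 32 cells, 11 also gave LOC100152327 10% or more.

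Cells with LOC396781 held less JCHAIN, which the rule reads, so this comparison is within the cells that passed it. The 32 cells at d14 had a median JCHAIN of 258 per 10000, against 798 in the other 224, and 570 against 1970 on UMIs off both loci. Per 10000 UMIs without the 2 loci and JCHAIN, TNFRSF17 was at 1.47 in these cells and 6.71 in the others, and XBP1 at 15 and 9.50.

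Many cells rich in these loci stood outside the rule. At d14, 149 cells outside it held 20 or more UMIs of MZB1, TXNDC5 and DERL3, with a median JCHAIN of 47.1 per 10000. Of these, 113 gave LOC100152327 10% or more, 83 gave LOC396781 1% or more, 134 met either limit, and TNFRSF17 was detected in 29. At d21 there were 22 such cells, of which 14 gave LOC396781 1% or more and 17 met either limit, and at d7 there were 17, of which 4 did. The cells described here are therefore those rich in JCHAIN. With JCHAIN taken per 10000 UMIs off both loci, 306 cells at d14 and 199 at d21 met the rule, and 29 of the 50 cells gained at d14 gave LOC396781 1% or more.

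**Figure D3:**
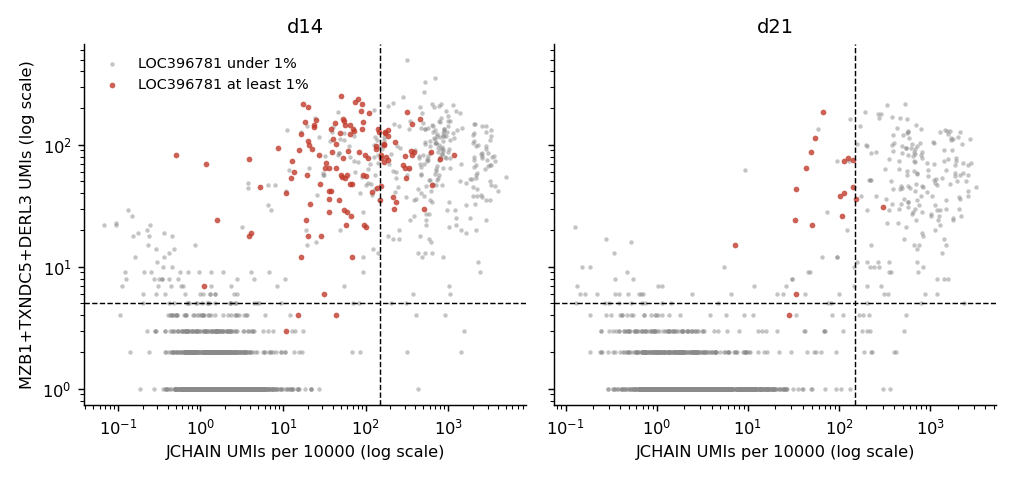
JCHAIN UMIs per 10000 (horizontal, log scale) against summed UMIs of MZB1, TXNDC5 and DERL3 (vertical, log scale) for cells with at least 1 UMI of each at d14 and d21; dashed lines mark 150 and 5, and red points gave LOC396781 at least 1% of their UMIs. Of the cells outside the rule at d14 with 20 or more UMIs on the vertical axis, 83 are red.

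LOC100152327, LOC396781 and JCHAIN together took 56.3% of plasma cell UMIs at d14 and 39.8% at d21, against 0.681% and 0.632% in B cells, which lowers every other gene of plasma cells per 10000 of all UMIs. The median log2 ratio of all genes compared was -1.18 and -0.73 over B cells, and -1.19 and -0.78 over all other cells, which include the B cells. Per 10000 remaining UMIs, those left without these 3 genes, the medians were -0.03 and 0.06 over B cells, and -0.07 and -0.04 over other cells. Levels below are per 10000 remaining UMIs unless all UMIs are named, with d14 first and d21 second. Ratios have 0.1 added to both levels. A gene was compared with a level of 0.5 or more, and called higher or lower in plasma cells when it differed at least 2-fold in the same direction in both libraries.

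Over B cells, 107 of 2405 genes (4.45%) were called higher and 728 (30.3%) lower on all UMIs. On remaining UMIs 373 of 2910 (12.8%) were called higher and 133 (4.57%) lower. Over all other cells, 82 of 2608 (3.14%) were called higher and 814 (31.2%) lower on all UMIs, and 325 of 3019 (10.8%) higher and 237 (7.85%) lower on remaining UMIs. The counts of list genes below are a description of chosen cells beside these shares.

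Of 10 plasma cell transcription factors compared with B cells, 6 were higher on remaining UMIs, and on all UMIs 5 were higher and 2 lower. XBP1, which drives the secretory programme, was at 10.1 and 5.58 in plasma cells and 0.406 and 0.390 in B cells. PRDM1 (BLIMP1), which silences B cell genes, was at 2.24 and 2.03 against 0.157 and 0.298. IRF4 was at 2.73 and 3.11 against 0.203 and 0.688. All of these lay higher in plasma cells at both ages. EAF2, a transcription elongation factor, was at 6.69 and 5.17 against 0.974 and 0.918. POU2AF1, a coactivator of the whole B lineage, differed less, at 6.62 and 5.02 against 2.75 and 3.14. KLF2, a factor of resting lymphocytes, was at 2.01 and 3.36 against 4.34 and 5.14.

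Most compared genes of entry into the ER were called higher than in B cells, in plasma cells chosen in part on ER genes. Of 23 compared with B cells 19 were higher and 0 lower (15 of 21 higher on all UMIs). Over all other cells 17 of 23 were higher (9 of 21 on all UMIs). SSR4, of the translocon-associated complex, was at 81.4 and 45.2 against 10.1 and 9.06 in B cells. SEC61B, of the translocon, was at 32.3 and 22.5 against 3.83 and 3.76. SEC11C, a catalytic subunit of signal peptidase, was at 25.5 and 16.9 against 0.835 and 0.711, while its paralog SEC11A was at 1.93 and 1.86 against 1.68 and 1.33, short of the 2-fold limit.

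Of 27 genes of folding and disulfide bonds, 24 were higher and 0 lower than in B cells on remaining UMIs, and 16 of 25 were higher and 1 lower on all UMIs. HSP90B1 (GRP94), an ER chaperone, was the most abundant, at 84.0 and 110.2 against 4.68 and 3.17. FKBP11, a prolyl isomerase, was at 41.6 and 27.4 against 1.18 and 1.31, and PRDX4, a peroxiredoxin of the ER, at 22.5 and 11.7 against 0.643 and 0.528. The general chaperone HSPA5 (BiP) differed less, at 13.1 and 13.5 against 3.14 and 3.65. CNPY3, a chaperone of Toll-like receptors, was at 0.400 and 0.562 against 0.985 and 0.918.

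On remaining UMIs, most compared genes of later steps of secretion were called higher too. Of 20 genes of the unfolded protein response and of disposal of misfolded proteins, 15 were higher than in B cells (9 of 17 on all UMIs). HERPUD1, of ER disposal, was at 17.9 and 12.6 against 1.73 and 2.87, whereas DDIT3 (CHOP), a factor of prolonged ER stress, was at 1.14 and 1.54 against 1.15 and 1.61. Of 15 genes of N-glycosylation 11 were higher (4 of 12 on all UMIs), and of 27 genes of transport from ER to Golgi 20 were higher (4 of 21 on all UMIs). LMAN1, a cargo receptor of that transport, was at 10.6 and 9.52 against 0.585 and 0.619. The median log2 ratio over B cells was 1.59 and 1.62 for transport, against 2.51 and 2.67 for folding, a difference that was not tested.

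Most genes of the B cell stage that were compared were lower than in B cells, which had been chosen on such genes. Of 15 compared, 13 were lower on either scale. MS4A1, CD79B and PAX5 had helped to choose the B cells. Genes could also enter through their level in B cells alone, so this count was partly set beforehand. Over all other cells, 2 of 4 were higher and 1 lower (1 and 2 of 3 on all UMIs). The list summed to 6.33 and 6.01 in plasma cells and 5.88 and 5.00 in other cells (2.76 and 3.62 against 5.81 and 4.99 on all UMIs). CD37, a tetraspanin of mature B cells, was at 0.502 and 0.343 against 3.56 and 2.22, and SPIB, a B cell factor, at 0.00929 and 0.0137 against 1.22 and 0.872. CD79B, of the B cell receptor, was at 2.17 and 1.49 against 6.14 and 4.24, which the choice of B cells favours. BTK, a kinase of the receptor pathway, was not lower, at 0.818 and 0.768 against 0.788 and 0.757.

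MHC class II genes, which present antigen to T cells, were detected, and most were lower than in B cells. Of 10 compared with B cells, 6 were lower on remaining UMIs and 8 on all UMIs. Of 9 compared with all other cells, 1 was lower on remaining UMIs and 6 on all UMIs. CD74, the invariant chain, was at 22.4 and 14.1 against 51.5 and 34.8, and SLA-DRA at 7.2 and 3.1 against 18.9 and 11.9. With cells thinned to 1000 remaining UMIs, which left out 15 and 14 plasma cells, SLA-DRA was detected in 30.3% of plasma cells at d14 and 15.3% at d21 (64.5% and 36.1% without thinning), and in 75.2% and 67.2% of B cells. In fibroblasts, here cells with 10 or more COL3A1 UMIs, taken as a guide to the background, the shares were 16.2% and 10.4%. The part of their own class II expression was not tested. The plasma cell interval at d14, 24.6 to 36.5%, lay above that of fibroblasts, 14.7 to 17.7%. The plasma cell interval at d21, 10.3 to 21.4%, overlapped that of fibroblasts, 8.09 to 13.1%. Thinned in the same way, CD74 was detected in 75.9% and 64.4% of plasma cells and in 24.7% and 20.1% of fibroblasts. Its intervals at d21, 56.9 to 71.4% and 17.0 to 23.5%, did not overlap. In all other cells SLA-DRA was at 30.2 and 6.50.

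Receptors for the survival factors BAFF and APRIL divided between plasma cells and B cells. TNFRSF17 was at 6.11 and 9.43 in plasma cells against 0.0348 and 0.184 in B cells, and TNFRSF13B (TACI) at 2.56 and 3.03 against 0.139 and 0.321. TNFRSF13C, the BAFF receptor of naive B cells, had the opposite order, at 0.102 and 0.192 against 0.742 and 0.528. Of the list of 10 survival genes compared, 3 were higher and 2 lower (2 higher and 3 lower of 8 on all UMIs). CD40, through which T cells help B cells, was at 0.325 and 0.206 against 2.26 and 2.45, and CD28 was at 0 in the plasma cells of both libraries.

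Of 10 homing and adhesion genes compared with B cells, 4 were higher and 3 lower (2 and 3 of 9 on all UMIs). CCR10 was at 1.61 and 1.77 against 0.0116 and 0.0688. ITGA4 and ITGB7, the chains of the integrin that binds MADCAM1 on gut vessels, were at 3.15 and 4.89 and at 3.61 and 4.72, against 1.11 and 2.02 and 0.736 and 1.01. CCR9, for homing to the small intestine, was detected in 0.391% and 2.09% of plasma cells. CCR7 and S1PR1, which guide lymphocytes through lymph nodes and blood, were detected in at most 4.19%.

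**Figure D4:**
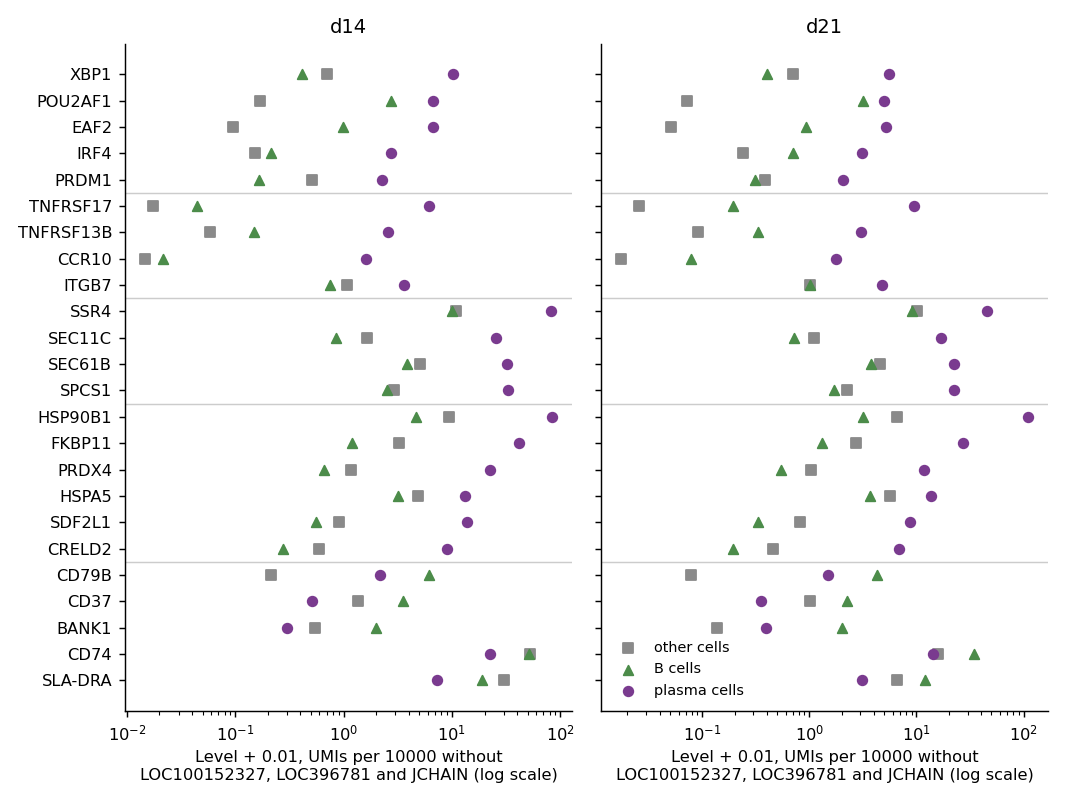
Levels by role in plasma cells (circles), B cells (triangles) and all other cells (squares) at d14 and d21, as UMIs per 10000 without LOC100152327, LOC396781 and JCHAIN plus 0.01, on a log scale. HSP90B1 and SSR4 lie farthest right in plasma cells, and CD37, CD74 and SLA-DRA lie left of B cells.

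The 15 genes highest over all other cells in both libraries, on all UMIs, were JCHAIN, LOC100152327, MZB1, TXNDC5, LOC100125542, TNFRSF17, EAF2, LOC100038329, BHLHA15, POU2AF1, TMEM56, DERL3, TNFRSF13B, LOC396781 and SEC11C. LOC100125542 and LOC100038329 have no other symbol in the annotation and no chromosome. LOC100125542 was at 10.7 and 26.5 in plasma cells and 0.0304 and 0.0421 in other cells, and was detected in 32.0 and 55.0 percent of plasma cells. LOC100038329 was at 5.36 and 8.14 against 0.0779 and 0.0170.

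Few plasma cells carried proliferation genes. With cells thinned to 1000 UMIs of all genes, MKI67 or TOP2A was detected in 7 of 250 plasma cells at d14 (2.80%, 1.13 to 5.68%) and 9 of 185 at d21 (4.86%, 2.25 to 9.03%), with 6 shallower cells left out in each library. In B cells the shares were 12.2% (8.31 to 17.0%) and 7.46% (2.47 to 16.6%), with 1 cell left out in each. Thinned to 1000 remaining UMIs, plasma cells had 4.98% (2.60 to 8.54%) and 6.21% (3.14 to 10.8%). Without thinning they had 12.5% and 14.7%. The interval at d14 thus ended below that of B cells on all UMIs and overlapped it on remaining UMIs, and at d21 the intervals overlapped on both.

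Cells with 2 or more UMIs of MKI67 or TOP2A numbered 24 at d14 and 12 at d21. They were deeper, with medians of 7948 and 11483 remaining UMIs against 2864 and 2585 in cells with none, and held more CD3E, a T cell gene, at 1.03 and 1.61 against 0.579 and 1.00. The parts of depth and of T cell RNA in what follows were not tested. Their TNFRSF17 level was 3.72 and 5.04, against 6.87 and 11. Their XBP1 level was 6.32 and 4.55, against 11.3 and 6.06. HSP90B1 was higher in them at d14 and lower at d21, at 100.6 and 76.7 against 79.6 and 122.1. CD74 was lower in them at both ages, at 15.5 and 9.11 against 24.8 and 16.4.

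The plasma cells of d14 and d21 were compared gene by gene, 1 library against 1. Genes with a level of 0.5 or more at either age were compared, so a gene could enter through 1 age alone. A gene was called when its level differed at least 2-fold and the counting interval of the ratio, taken without the added 0.1, left out 1. On all UMIs 142 of 1754 genes (8.1%) were called higher at d21 and 33 (1.88%) lower. The smaller share of the 3 excluded genes at d21 moved the median gene by 0.46 on the log2 scale. On remaining UMIs the median was 0.01, with 83 of 3159 genes (2.63%) called higher and 106 (3.36%) lower. The log2 ratios of d21 over d14 below are on remaining UMIs, beside those of all other cells.

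Part of the immediate early and heat shock genes were higher at d21. Of 14 compared 7 were called higher and 0 lower, with a median of 1.02 (12 higher on all UMIs). FOS, an immediate early factor, was at 2.56 and 11.13, a ratio of 2.08 (1.92 to 2.33) against 0.35 in other cells. HSPH1, a cochaperone of HSP70, was at 5.07 and 19.1, a ratio of 1.89 against 1.24. FOSB and ATF3 had ratios of 1.93 and 2.01, against 1.79 and 1.10. Other stress genes outside the list lay among the 10 greatest rises: HSP70.2 had 1.89 against 0.47, HSP90AA1 had 1.61 against 0.68, BAG3 had 1.83 against 0.81 and ZFAND2A had 2.07 against 2.24. The list summed to 89.5 and 185 in plasma cells, 94.5 and 154 in B cells and 119 and 153 in other cells on remaining UMIs, so that plasma cells had the lowest sum at d14 and the highest at d21. On all UMIs the sums were 39.1 and 111, 93.8 and 153, and 117 and 153, and plasma cells were lowest at both ages. The median percentage of mitochondrial UMIs per cell was higher at d21 too, at 2.53 and 4.64 in plasma cells and 4.92 and 7.09 in other cells, and its part was not tested. Genes of this kind also respond to cell handling, whose part was not tested.

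RGS1, a regulator of chemokine receptor signalling, had the greatest rise of the 764 genes ranked on all UMIs. It was at 1.19 and 6.99, a ratio of 2.46 (2.27 to 2.85) against 1.10 in other cells. CCL5, a chemokine of cytotoxic T cells, was at 11.6 and 42.0, a ratio of 1.85 against 1.29, and was detected in 69.5 and 98.4 percent of plasma cells and 61.1 and 100 percent of B cells. Of 7 T cell markers compared, 5 were called higher. Markers low at d14 could enter this count through d21 alone, which favours rises. On all UMIs the whole list summed to 6.18 and 29.3 in plasma cells and 60.7 and 137 in other cells, with CCL5 the most abundant. At least 2 CD3E UMIs were held by 11 plasma cells at d14 and 16 at d21. The part of T cell RNA in these values was not tested.

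Few genes of secretion were called between the ages. Of 28 folding genes and 23 genes of ER entry 0 were called in either direction, with medians of -0.22 and -0.21, and 1 of 21 genes of the unfolded protein response and ERAD was called higher. Of all genes compared 2.63% were called higher and 3.36% lower, so these counts lie near the background and do not set the lists apart. HSP90B1 had a ratio of 0.39 (0.35 to 0.44), whereas XBP1 had -0.85 (-1.03 to -0.69), SSR4 -0.85 and PRDX4 -0.94. TNFRSF17 had 0.62 (0.47 to 0.78), below the 2-fold limit. On all UMIs its levels were 2.67 (2.47 to 2.88) and 5.68 (5.26 to 6.12), a ratio of 1.06. TNFRSF13B had 0.23 (-0.02 to 0.50) and CCR10 0.13 (-0.20 to 0.48), intervals that included no difference. LOC100125542 had 1.30 (1.20 to 1.41).

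Some MHC class II and interferon genes were lower at d21. Of 9 class II genes compared 5 were called lower (1 of 7 on all UMIs). On all UMIs the list summed to 26.6 and 18.5 in plasma cells and 159 and 39.5 in other cells, and SLA-DRB1 had a ratio of -1.77 against -2.46. Myeloid markers were lower in the same cells, where the whole list summed to 10.6 and 1.75 on remaining UMIs. Of 7 compared 5 were called lower with a median of -2.51 (4 of 4 on all UMIs). Markers low at d21 could enter these counts through d14 alone, which favours falls. The part of myeloid RNA in the class II values was not tested. Of 6 interferon response genes 3 were called lower, with a median of -0.99 (1 of 4 on all UMIs, with a median of -0.18). ISG15, an antiviral ubiquitin-like protein, was at 11.2 and 3.83, a ratio of -1.53 (-1.74 to -1.36) against 0.60 in other cells, although it was detected in 43.4 and 48.2 percent of plasma cells. IFI6 was at 74.9 and 38.3, a ratio of -0.97 against 0.38. Both thus had the opposite direction in other cells.

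The greatest falls were mostly in genes of fibroblasts and smooth muscle. All 8 fibroblast and mural markers compared were called lower (5 of 6 on all UMIs). Markers low at d21 could enter these counts through d14 alone, which favours falls. On all UMIs the whole list summed to 10.3 and 2.06 in plasma cells and 51.7 and 15.6 in other cells, with COL3A1 the most abundant. COL3A1 had a ratio of -2.58 against -2.06 in other cells, and ACTA2 had -3.50 against -1.91. ADAMDEC1 and CXCL14, of gut fibroblasts, had -3.59 and -3.26, against -3.14 and -2.79. TAGLN, COL1A2, FN1 and TIMP1 had -3.27, -2.43, -2.34 and -1.97, against -2.02, -1.84, -2.02 and -1.31. At d14 a single plasma cell held 280 of 563 ACTA2 UMIs, and a single cell held 415 of 505 UMIs of SAA3, an acute phase protein. For CXCL14, ADAMDEC1 and TAGLN the 2 plasma cells highest for each gene at d14 held 671 of 1210, 224 of 528 and 237 of 379 UMIs. When the 49 plasma cells of d14 and 21 of d21 with at least 2 UMIs of CD3E, LYZ, EPCAM, COL3A1, PECAM1 or HBB were left out, 5 genes in place of 33 were lower at d21 on all UMIs. On that scale SAA3 went from -4.01 to 0.11, ACTA2 from -2.89 to 0.16 and TIMP1 from -1.43 to 0.24. CXCL14 went from -2.74 to -0.59, ADAMDEC1 from -2.95 to -1.25, TAGLN from -2.63 to -0.16 and COL1A2 from -1.87 to -0.04, while LOC396781 went from -3.21 to -3.07. COL3A1 was itself used to leave cells out, so its value without them is not given.

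**Figure D5:**
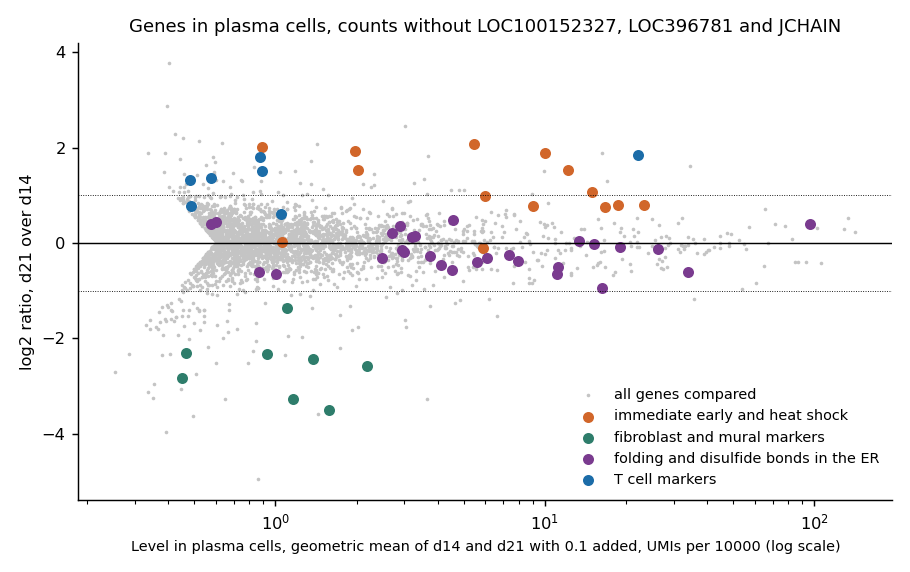
Log2 ratio of d21 over d14 in plasma cells (vertical) against the geometric mean level of both ages (horizontal, log scale, 0.1 added) for 3159 genes, on UMIs without LOC100152327, LOC396781 and JCHAIN; coloured points are 4 gene lists, grey points all genes compared, and dotted lines 2-fold. Genes with a level of 0.5 or more at either age are shown. Of these, the fibroblast and mural markers all lie below the lower dotted line, the T cell markers above 0, and the folding genes between the dotted lines.

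Other markers of other cells are given on remaining UMIs with the sums on all UMIs after them. Myeloid markers summed to 10.6 and 1.75 in plasma cells, against 29.9 and 4.38 in other cells (4.65 and 1.06 against 29.5 and 4.37), with C1QA the most abundant at d14 and AIF1 at d21. Of 3 compared with other cells, 1 was lower in plasma cells on remaining UMIs and 3 on all UMIs. Epithelial markers summed to 2.13 and 2.29, against 13.5 and 19.9 (0.929 and 1.38 against 13.3 and 19.9), and were thus low on either scale. Endothelial markers lay closer to other cells, at 1.19 and 0.590 against 1.74 and 0.903 (0.520 and 0.355 against 1.72 and 0.901), with VWF and CLDN5 at 0. PECAM1, an endothelial marker that leukocytes also carry, had 2 or more UMIs in 5.47% of plasma cells at d14 and 1.05% at d21, against 3.01% and 0.988% of other cells. Mast cell markers summed to 0.223 and 0.370, against 1.98 and 1.00 (0.0974 and 0.223 against 1.95 and 1.00), with HDC at 0 and CPA3 at 0 in all cells. Erythroid markers summed to 0 and 0.0274, against 0.328 and 2.30 (0 and 0.0165 against 0.324 and 2.29), with ALAS2 and HBM at 0. Markers of plasmacytoid dendritic cells summed to 3.98 and 4.43, against 6.59 and 6.67 (1.74 and 2.67 against 6.51 and 6.66).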

How the data were processed

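Cells of scraped cecal mucosa were counted by droplet single-cell RNA sequencing, with 1 library of 5 pooled piglets at each of 5 ages. The authors deposited whole-number UMI counts per gene and barcode for each library. The submitters' processing notes name Cell Ranger 3.1.0, STAR and the pig genome build susScr11, and every deposited barcode held at least 500 UMIs. The cell numbers stated by the study are lower than the deposited barcodes, and its further filters were not applied.

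Barcodes with at least 200 genes were kept, from 15350 (d0), 14142 (d1), 10824 (d7), 16273 (d14) and 16975 (d21) deposited. Doublets were not removed. Levels are summed UMIs of a group of cells per 10000, and shares have exact Clopper-Pearson and levels exact Poisson 95% intervals, which cover counting error only. B cells held at least 2 UMIs of MS4A1 and 1 of a second B cell gene, such as CD79A, CD79B or PAX5; some genes used are not reported here. The limit for a count of 0 was 3 cells. Plasma cells of d7 were too few for levels, for which 50 were required. Of 395 list genes 379 were in the matrices. Fold calls on counts were tested on simulated data.

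The members and the 25 gene lists were chosen with earlier results of these data known. Genes named are the rule genes, list genes by role, the 10 greatest rises and falls between d14 and d21 with a level of at least 1, and the 15 highest over other cells. Other genes named for contrast, such as SEC11A and CNPY3, were chosen after their values were seen. A planned split by light chain class was not run, as none of 137 V segment and C region genes of RefSeq was in the matrices. Python 3.11.15, NumPy 2.4.6, SciPy 1.17.1, pandas 2.3.3 and matplotlib 3.10.9 were used.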

Additional observations from a re-analysis of the deposited data

Results flagged for a closer look

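Both genes below had opposite directions in plasma cells against all other cells at d14 and d21, and the difference between the ages was not tested, as each age had 1 library. SAA3 had a log2 ratio of plasma cells over other cells of 1.52 at d14 and -2.82 at d21 on all UMIs. At d14, 415 of its 505 UMIs were in 1 plasma cell, and at d21 plasma cells held 4 UMIs in all. TNF, a cytokine, had -1.57 at d14 and 1.00 at d21. It was detected in 10.9% of plasma cells at d14 and 25.7% at d21, and on UMIs without LOC100152327, LOC396781 and JCHAIN its log2 ratios were -0.62 and 1.69.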

How the results depend on the processing

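No paired analysis was possible because each age had 1 library, and for the same reason no library could be left out. The splits by light chain class (75% of light chain UMIs, 50 light chain UMIs) were not run. The share of plasma cells at d14, 1.58%, was 1.87% with JCHAIN from 75 per 10000, 1.33% from 300, 1.28% without cells holding other-cell markers, and 1.89% with JCHAIN per UMIs off both loci. At d21, 1.13% became 0.971% with JCHAIN from 300 and 1.35% under 20% mitochondrial counts. Under that limit 253 cells at d14 and 185 at d21 met the rule, and the ratio between these ages is not given. With JCHAIN from 75 per 10000, 303 cells at d14 and 209 at d21 met the rule, and from 300 these were 215 and 164. Without cells holding other-cell markers 207 and 170 remained, and with JCHAIN per UMIs off both loci there were 306 and 199. Intervals of the difference between the ages are not given for these settings. Taking JCHAIN per UMIs off both loci was chosen after seeing the data. With it LOC100152327 of 10% or more went from 53.5 to 60.5% at d14, and LOC396781 of 1% or more from 12.5 to 19.9% at d14 and from 1.05 to 4.52% at d21. Without thinning, MKI67 or TOP2A was in 12.5 and 14.7% of plasma cells.

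The counts of genes depended on the setting. The 142 genes higher at d21 became 232 with 0.01 added, 28 with 1 added, 83 on remaining UMIs and 260 with no filter on low levels. The 33 lower became 7 with 1 added, 106 on remaining UMIs, 80 with no filter and 5 without cells holding other-cell markers. In that last setting SAA3 (0.11), ACTA2 (0.16) and TIMP1 (0.24) changed direction. Over B cells, 107 higher became 43 with 1 added, 373 on remaining UMIs and 181 with equal weight per cell, and 728 lower became 175 with 1 added and 133 on remaining UMIs. Over other cells, 82 higher became 40, 325 and 146 in these settings, and 814 lower became 146 with 1 added, 237 on remaining UMIs and 1578 with no filter. The cause of each shift was not tested, beyond the fewer or more genes compared.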

Other observations

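A list of 21 genes that signal to plasma cells or carry IgA was measured in all cells other than plasma cells. Levels are per 10000 of all UMIs from d0 to d21, and values are given for part of the list. PIGR, the epithelial carrier of IgA, was at 0.00204, 0.00935, 0.0403, 0.205 and 0.794, with its highest level at d21, although epithelial markers summed to 123, 87.3, 91.7, 13.3 and 19.9. CCL28, a ligand of CCR10, was at 0.000600, 0.00923, 0.0290, 0.0178 and 0.0518, also highest at d21. TNFSF13B (BAFF) was at 0.0290, 0.0426, 0.262, 0.463 and 0.181, and TNFSF13 (APRIL) at 0.0198, 0.0676, 0.0787, 0.129 and 0.0981, both highest in the d14 library. Myeloid markers summed to 1.44, 10.9, 11.3, 29.5 and 4.37 and were also highest at d14. CXCL12 was at 0.00707, 0.346, 0.0240, 0.409 and 0.279, while fibroblast and mural markers summed to 0.543, 19.1, 3.22, 51.7 and 15.6. Other genes of the list had the opposite order. MADCAM1 was at 0.0124, 0.837, 0.00397, 0.0496 and 0.0149, and IL6 and IL33 were also highest at d1. CCL20 was at 4.06, 3.40, 0.295, 0.299 and 0.774, and CCL25 and IL5 were also highest at d0. The genes of the list not named here were highest at d7 or later. The cells in each library differed between ages, and their part in these levels was not tested.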
